A study of Mus musculus with 7 samples.

Results

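The 45 nuclear receptors listed here were chosen by gene name and were followed through 7 mouse tissues, beside 21340 protein-coding gene names in the same table. All 45 were found. RNA-Seq had been made with 1 library each from cortex, kidney, liver and skeletal muscle (SKM) and from 3 adipose tissues, brown (BAT), subcutaneous (SCAT) and visceral (VAT). Each group was a tissue of wt C57BL/6 mice aged 36 weeks and kept on the diet labelled NCD, so strain, genotype, age and diet were shared by all and no treatment was compared. How many mice stood behind a library was not given in the sources used here. Values are FPKM, sequenced fragments scaled for transcript length and library size, and no p-value could be given because no tissue had a replicate. The comparison asks in which tissues each receptor RNA was found, and at what level.

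Nuclear receptors are transcription factors with a DNA-binding zinc finger domain and, in most members, a pocket that takes up a small lipophilic ligand such as a steroid, thyroid hormone, a retinoid, a bile acid or a fatty acid derivative. Steroid receptors bind DNA as homodimers, many receptors for dietary lipids and hormones bind as heterodimers with a retinoid X receptor (RXR), and several orphan receptors bind as monomers. With ligand the receptor exchanges corepressors for coactivators, and the set of receptors present in an organ helps to define which hormones and metabolites it can answer.

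Nuclear receptors were found broadly at the level of the body and unevenly at the level of the tissue. In all, 41 of 45 (91.1%) reached 1 FPKM in at least 1 tissue, beside 70.0% of all protein-coding genes. A receptor was called enriched in a tissue when it had at least 1 FPKM there and a log2(FPKM + 0.1) at least 2 above each of the other tissues, a 4-fold difference. By this rule of size 13 of 41 receptors (31.7%) were enriched, beside a background of 21.4% of 14928 protein-coding genes. The 5 enriched in liver were Nr1h5, Nr1i2, Nr1i3, Nr5a2 and Nr0b2 (12.2%, background 3.39%). The 5 enriched in cortex were Thra, Rorb, Nr2e1, Nr2f1 and Pgr (12.2%, background 8.21%). Kidney had 2, Vdr and Hnf4g (4.88%, background 2.49%), and SKM had 1, Nr4a1 (2.44%, background 3.38%). None was enriched in VAT, SCAT or BAT, where the backgrounds were 1.21%, 1.93% and 0.757%. Only 14 receptors (34.1%) reached 1 FPKM in all 7 tissues, beside 52.5% of protein-coding genes. From the lowest to the highest tissue, the median receptor spanned 4.40 on the log2 scale, beside 2.99 for protein-coding genes.

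**Figure D1:**
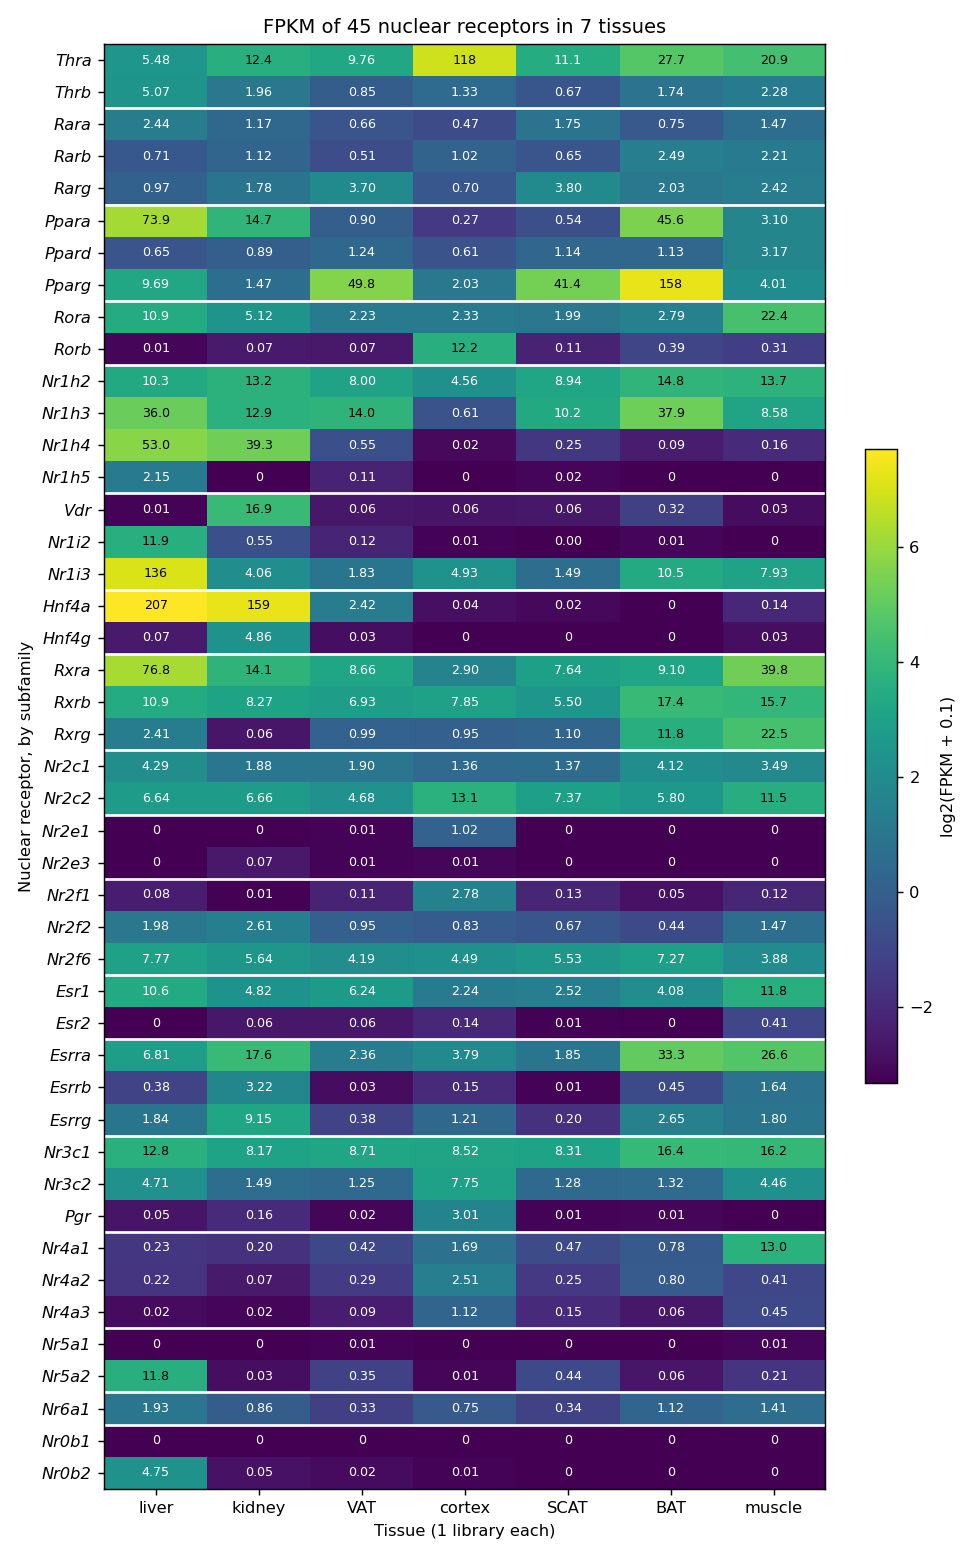
FPKM of the 45 nuclear receptors (rows, grouped by subfamily with white lines between groups) in the 7 tissues (columns, 1 library each; "muscle" is SKM), coloured by log2(FPKM + 0.1) with the FPKM printed in each cell. Hnf4a in liver and kidney, Pparg in BAT, Nr1i3 in liver and Thra in cortex are the brightest cells, and Nr0b1 is at 0 in every column.

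Liver, kidney and SKM had the largest repertoires. At least 1 FPKM was reached by 28 of 45 receptors in liver (62.2%, background 49.6%), 27 in kidney (60.0%, background 51.8%), 27 in SKM (60.0%, background 51.0%), 24 in cortex (53.3%, background 52.6%), 23 in BAT (51.1%, background 50.3%), 19 in SCAT (42.2%, background 50.0%) and 18 in VAT (40.0%, background 52.3%). The FPKM summed over the 45 was 733 in liver, 424 in BAT, 376 in kidney, 270 in SKM, 217 in cortex, 146 in VAT and 129 in SCAT. Of the 41 receptors with at least 1 FPKM, 20 (48.8%, background 38.5%) stood at least 2-fold above their next tissue on the log2 scale. By tissue these were 7 in cortex, 6 in liver, 3 in kidney, 3 in SKM, 1 in BAT and 0 in VAT and SCAT. The 2-fold background of each single tissue was not computed. For the other 21 the highest tissue was not told apart from the next.

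A few receptors made up most of this sum, and the leading receptor was Hnf4a in liver and kidney, Pparg in the 3 adipose tissues, Thra in cortex and Rxra in SKM. In liver Hnf4a held 28.2% of the summed receptor FPKM, Nr1i3 18.5%, Rxra 10.5% and Ppara 10.1%. On the annotated strand Hnf4a held 14.9% in liver, behind Nr1i3 at 22.4%, and still led in kidney with 25.8%. In kidney Hnf4a held 42.1% and Nr1h4 10.4%. In cortex Thra alone held 54.2%, with Nr2c2 next at 6.05%. In the 3 adipose tissues Pparg led with 34.1% in VAT, 32.0% in SCAT and 37.4% in BAT. SKM was the most even, with Rxra at 14.8%, Esrra at 9.87%, Rxrg at 8.35% and Rora at 8.30%, and its first 5 receptors came to 49.0%, beside 74.5% in liver.

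The labelled tissues carried their defining markers, and some libraries carried those of another tissue too. Of the kidney tubule markers 6 of 6 were enriched in kidney, of the neuron markers 5 of 6 in cortex, of the hepatocyte markers 4 of 6 in liver and of the muscle fibre markers 4 of 6 in SKM. Of the other muscle markers Acta1 was not analysed, and Myh4 has no usable SKM value and was called in BAT (87.5 FPKM). The hepatocyte markers Alb and Serpina1c have no usable liver value and were called in VAT (253 and 9.79 FPKM). All 6 adipocyte markers reached 1 FPKM in each adipose tissue, and 2 of 6 brown adipocyte markers, Ucp1 (6552 FPKM) and Cidea (832), were enriched in BAT. Of the other brown markers Cox8b also had 5108 FPKM in SKM, Elovl3 had 65.6 in liver, Ppara was highest in liver and Dio2 did not pass 0.387. In SCAT 8 of 8 lymphocyte markers were enriched (summed FPKM 162, and 0.589 to 4.93 elsewhere), as were 6 of 8 pancreatic acinar markers (117, and 0.128 to 4.96 elsewhere). In VAT 5 of 8 epididymis markers were enriched (2950, and 0 to 2.04 elsewhere) and 3 of 6 epithelial ones. The 4 hepatocyte markers with a liver value stood at a median of 0.775% of their liver level in VAT and 0.670% in kidney. The muscle markers stood in BAT at 1.70% of their SKM level. In bulk tissue fewer cells of a type and less RNA per cell cannot be told apart.

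The table lists 25 of the 45 receptors under several loci, 88 loci in all for the 45, and by the order of locus numbers these lie on both strands, some with several on the same strand. The values given are those of the most abundant locus, and for 10 receptors (Thrb, Rorb, Nr1h5, Hnf4a, Hnf4g, Esr1, Esr2, Esrrb, Nr4a2 and Nr4a3) this locus was opposite in strand to the annotated gene. With the locus on the annotated strand in its place, the same 13 receptors were enriched (32.5% of 40, background 20.1%). The annotated-strand values of these receptors are given beside the others where they are described.

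**Figure D2:**
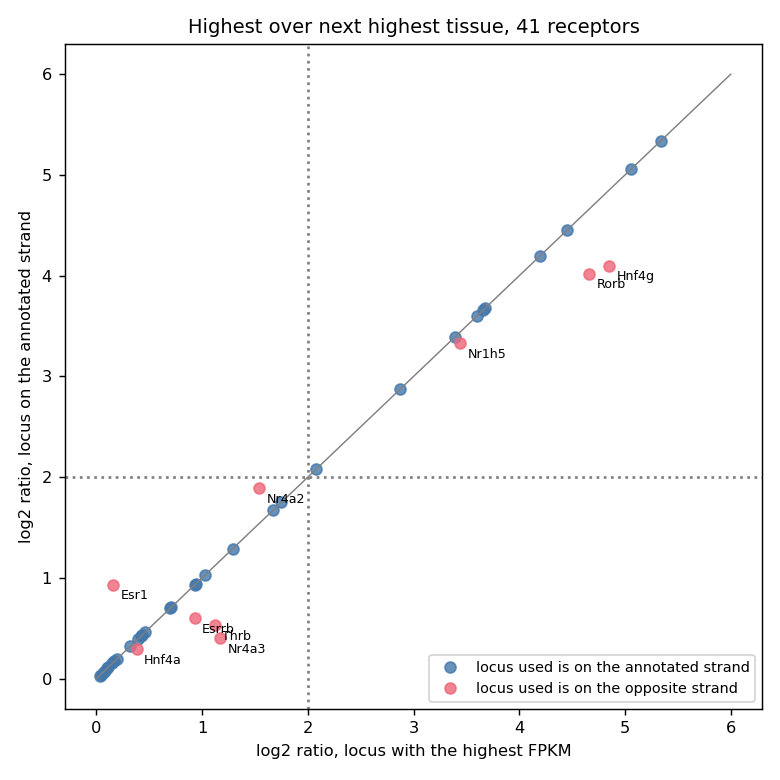
Log2 ratio of the highest over the next highest tissue for the 41 receptors with at least 1 FPKM, from the locus with the highest FPKM (horizontal) and from the locus on the annotated strand (vertical). Dotted lines mark the 4-fold rule at 2, blue points use the annotated strand in both and lie on the diagonal, and the named red points are receptors whose highest locus is on the opposite strand, none of which changes side.

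**Figure D3:**
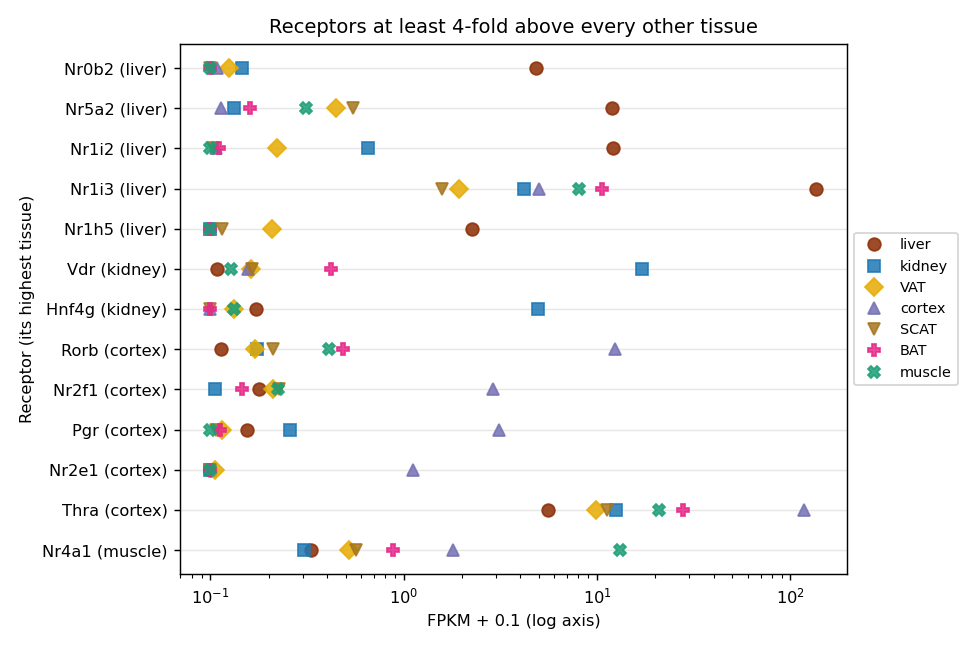
FPKM + 0.1 (log axis) of the 13 enriched receptors in each of the 7 tissues, 1 symbol per tissue, with the highest tissue in brackets. The gap is narrowest for Thra and widest for Vdr, with log2 ratios of 2.08 and 5.34.

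The receptors enriched in liver included both xenobiotic sensors. Nr1i3, the constitutive androstane receptor CAR that induces drug-metabolising enzymes, had 136 FPKM in liver, 10.5 in BAT, 7.93 in SKM, 4.93 in cortex, 4.06 in kidney, 1.83 in VAT and 1.49 in SCAT, a log2 ratio of 3.68 over BAT. It was the only enriched receptor besides Thra with at least 1 FPKM in every tissue. Nr1i3 overlaps Tomm40l, a gene on the opposite strand, over 4691 bases, and Tomm40l was also highest in liver (61.8 FPKM) and next in BAT (32.8). Whether reads of one were counted for the other was not tested. Nr1i2, the pregnane X receptor PXR, had 11.9 FPKM in liver and 0.554 in kidney, and stood at or below 0.122 in the other tissues (log2 ratio 4.20).

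Nr5a2, or LRH-1, which activates bile acid synthesis genes as a monomer, had 11.8 FPKM in liver, 0.444 in SCAT, 0.348 in VAT, 0.212 in SKM and 0.0598 or less in BAT, kidney and cortex (log2 ratio 4.45). LRH-1 is also a receptor of the exocrine pancreas, and its next highest library was the SCAT library with the acinar markers, among them Ctrb1 at 35.9 FPKM (11.4 on its annotated strand) and Rbpjl at 0.053. The part of these cells in the SCAT value was not tested. Nr0b2, or SHP, an atypical receptor without a DNA-binding domain that represses its partners, had 4.75 FPKM in liver, 0.0459 in kidney, 0.0243 in VAT, 0.00782 in cortex and was listed at 0 in SCAT, BAT and SKM (log2 ratio 5.06). Nr1h5, a lanosterol-binding relative of the bile acid receptor, had 2.15 FPKM in liver and 0.107 in VAT (log2 ratio 3.44). On its annotated strand Nr1h5 had 1.52 FPKM in liver and 0.061 in VAT.

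Nr0b2 is a textbook target of LRH-1, and the 2 promoters are shown for that reason. They are the 250 bases upstream of the annotated start, written 5′ to 3′ on the gene's strand (RefSeq, GRCm38.p6). Capitals mark matches to the motifs searched. Nr5a2 lies on the minus strand with its promoter at chr1:136960449-136960698, upstream of the first of 2 RefSeq starts, and Nr0b2 lies on the plus strand with its promoter at chr4:133553126-133553375.
Nr5a2: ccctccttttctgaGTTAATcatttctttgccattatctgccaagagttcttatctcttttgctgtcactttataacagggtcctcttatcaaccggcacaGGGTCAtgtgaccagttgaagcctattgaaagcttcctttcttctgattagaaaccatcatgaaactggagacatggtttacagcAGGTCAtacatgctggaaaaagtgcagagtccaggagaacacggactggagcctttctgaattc
Nr0b2: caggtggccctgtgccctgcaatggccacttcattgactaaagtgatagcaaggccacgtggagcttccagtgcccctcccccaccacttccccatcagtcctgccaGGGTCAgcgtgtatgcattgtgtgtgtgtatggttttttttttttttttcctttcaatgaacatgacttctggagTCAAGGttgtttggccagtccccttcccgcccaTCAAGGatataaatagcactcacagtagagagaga

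The Nr0b2 promoter held the NR5A core TCAAGG at 68 to 63 and again at 35 to 30 bases upstream of the start, and the receptor half-site variant GGGTCA at 143 to 138. The Nr5a2 promoter held the half-site AGGTCA at 64 to 59, GGGTCA at 149 to 144 and the HNF1 half-site GTTAAT at 236 to 231. Searched on both strands over all 20148 promoters of this length, TCAAGG was in 11.5%, AGGTCA in 12.6%, GGGTCA in 11.7% and GTTAAT in 5.74%. The windows of Nr1h5, Nr1i2 and Nr1i3 held none of these letters, nor the HNF4 motif CAAAGTCCA (0.402% of promoters) or the FOXA motif TGTTTAC (2.6%), which were in none of the 5. Over the 62 promoter windows of the 41 receptors with an entry, TCAAGG was in 9.68%, AGGTCA in 16.1%, GGGTCA in 17.7%, GTTAAT in 8.06%, TGTTTAC in 3.23% and CAAAGTCCA in 0. These matches are descriptions of the letters and not of bound sites.

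Hnf4a, which binds fatty acids and drives hepatocyte and proximal tubule genes as a homodimer, was the most abundant receptor of all at 207 FPKM in liver. It had 159 FPKM in kidney, 2.42 in VAT and 0.138 or less in SKM, cortex and SCAT, and was listed at 0 in BAT. Liver and kidney differed by 0.38 on the log2 scale, so they were not ordered by the 2-fold rule. On the annotated strand Hnf4a had 89.99 FPKM in liver, 73.4 in kidney and 0.859 in VAT. The order of tissues was the same for these 3, but Hnf4a then stood below Nr1i3 in liver, Pparg in BAT and Thra in cortex. The VAT value was 1.17% of the liver value, where hepatocyte markers stood at 0.775%. The part of hepatocyte RNA in it was not tested. Hnf4g, its close relative, had 4.86 FPKM in kidney, 0.0713 in liver and less elsewhere (log2 ratio 4.85; 2.29 in kidney on the annotated strand).

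Nr1h4, the bile acid receptor FXR, followed Hnf4a. It had 53.0 FPKM in liver, 39.3 in kidney, 0.549 in VAT and 0.246 or less in SCAT, SKM, BAT and cortex, with liver and kidney 0.43 apart on the log2 scale. The oxysterol receptors were spread more widely. Nr1h3 (LXR alpha) had 37.9 FPKM in BAT, 36.0 in liver, 14.0 in VAT, 12.9 in kidney, 10.2 in SCAT, 8.58 in SKM and 0.612 in cortex. Nr1h2 (LXR beta) stayed between 4.56 FPKM in cortex and 14.8 in BAT. Nr1h2 therefore held 87.8% of the LXR and FXR sum in cortex and 10.1% in liver.

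Of the 8 genes of the FXR target list 4 were enriched (background 21.4% of genes, as for each list here), all in liver and none in kidney: Nr0b2, Abcb11, Baat and Slc27a5. The background is over genes with at least 1 FPKM, which 7 of these 8 reached, while list counts are over all listed genes. Abcb11, the bile salt export pump, had 67.4 FPKM in liver and 0.00459 in kidney, and Slc27a5, a bile acid CoA ligase, had 236 and 0.0872. Slc51a and Slc51b form the basolateral bile acid exporter. Slc51a had 20.4 FPKM in liver and 20.5 in kidney, with its highest value, 43.4, in SKM, while Slc51b had 0.137 in liver, 13.2 in kidney and 27.9 in BAT. Fgf15, which the ileum makes, was at or near 0 in all 7 tissues. Of 5 genes for bile acid and oxysterol synthesis 2 were enriched, Cyp7a1 in liver (10.1 FPKM, log2 ratio 4.78, and 5.06 FPKM on its annotated strand) and Cyp46a1 in cortex (28.1 FPKM).

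Of the 8 LXR targets 2 (25.0%, near the background of 21.4%) were enriched, the sterol exporters Abcg5 (35.4 FPKM) and Abcg8 (22.2) in liver. Of the 8 HNF4A targets 6 were enriched, 1 of them (Apob) in kidney, since Apob has no usable liver value. Among the others were Apoc3 (844 FPKM in liver, 2.36 in kidney) and Otc (278 in liver, 0.0897 in kidney). Of the 8 PXR and CAR targets 3 were enriched. Cyp3a11 had 793 FPKM (407 on its annotated strand) and Cyp2c29 274 in liver, and Cyp2b10 had 6.27 in BAT and 0.0646 in liver. Whether reads of close paralogs were counted for any of these 3 was not tested.

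Vdr, the vitamin D receptor, had the largest log2 ratio of the 41 at a pseudocount of 0.1. It had 16.9 FPKM in kidney, 0.320 in BAT and 0.0641 or less in SCAT, VAT, cortex, SKM and liver, a log2 ratio of 5.34. Of 6 listed VDR targets 4 were enriched, all in kidney (3 on the annotated strand). Cyp24a1, which inactivates vitamin D, had 5.67 FPKM in kidney and 0.00592 in VAT, and a listed 0 in each of the 5 others. S100g, a calcium-binding protein of the distal tubule, had 262 FPKM in kidney, and Slc34a1, the phosphate transporter of the proximal tubule, had 505. Calb1 had 18.4 FPKM in kidney but 27.1 in cortex, and Trpv6 was highest in cortex at 3.395. Of 4 genes for vitamin D activation and clearance 1 was enriched, Cyp24a1, and 3 reached 1 FPKM, beside a background of 70.0%. Cyp27b1, the activating hydroxylase, was highest in kidney at 0.492.

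**Figure D4:**
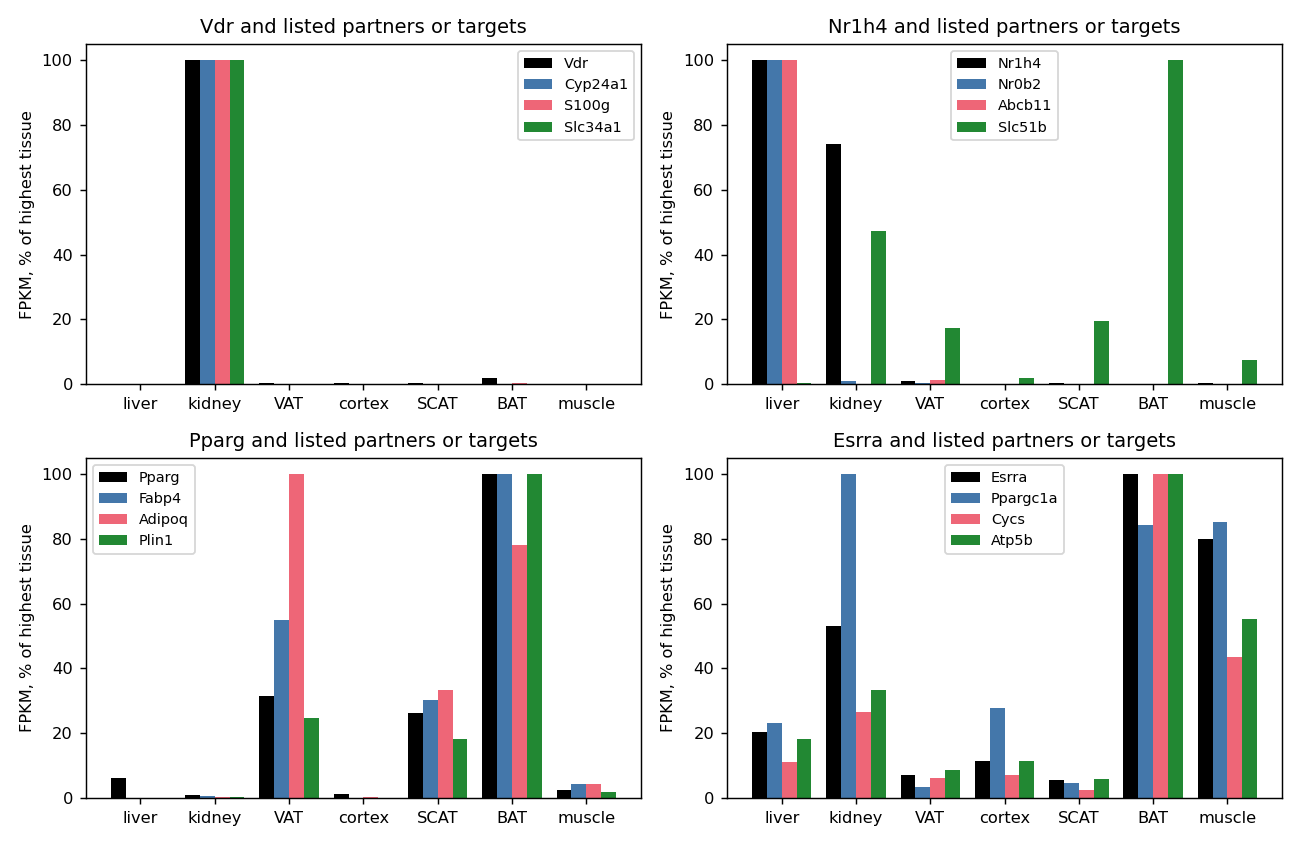
FPKM as a percent of the gene's highest tissue for Vdr, Nr1h4, Pparg and Esrra (black) and 3 listed targets or partners of each, picked after their values were seen, in the 7 tissues. Other genes of these lists had other patterns (Calb1 and Trpv6 were highest in cortex, Mb and Ckmt2 in SKM, and Pck1 had 930 FPKM in kidney). In the genes drawn, Vdr and its genes share kidney, Nr1h4 is in liver and kidney while Abcb11 is in liver and Slc51b peaks in BAT, Pparg and its genes are in the 3 adipose tissues, and Esrra and its genes are highest in BAT, except Ppargc1a in kidney.

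Ppara led its subfamily in liver and kidney and Pparg in the adipose tissues, cortex and SKM, and BAT held high levels of both. Ppara, which drives fatty acid oxidation, had 73.9 FPKM in liver, 45.6 in BAT, 14.7 in kidney, 3.10 in SKM, 0.902 in VAT, 0.537 in SCAT and 0.265 in cortex. Pparg, the receptor of adipocyte differentiation, had 158 FPKM in BAT, 49.8 in VAT, 41.4 in SCAT, 9.69 in liver, 4.01 in SKM, 2.03 in cortex and 1.47 in kidney. BAT stood above VAT by a log2 ratio of 1.67 and was therefore not called, and VAT and SCAT lay within 2-fold of each other. Ppard, the most even of the 3, had 3.17 FPKM in SKM and 0.607 to 1.24 elsewhere. Within the PPAR sum Ppara held 87.7% in liver and 86.1% in kidney. Pparg held 95.9% in VAT, 96.1% in SCAT and 77.2% in BAT. In SKM the shares were 30.2% Ppara, 30.8% Ppard and 39.0% Pparg. The SKM library also carried adipocyte markers, 6 of 6 with at least 1 FPKM at a median of 7.16% of their VAT level, where Pparg stood at 8.05%. Their part in the SKM value was not tested.

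Of the 9 PPARA targets 2 were enriched, both in liver, Cyp4a14 (2589 FPKM) and Fgf21 (12.3 FPKM, and 4.79 on its annotated strand), and of the 10 PPARG targets 1. The PPARA share of 22.2% lies near the background of 21.4%, and the PPARG share is below it. Pdk4, which spares glucose, had 1151 FPKM in SKM and 796 in BAT, and only 5.23 in liver. Plin1, a lipid droplet coat, was the enriched PPARG target, with 413 FPKM in BAT and 102 in VAT. Adipoq was highest in VAT (330 FPKM, and 258 in BAT), and Cfd had 2241 FPKM in SCAT, 1963 in VAT and 336 in BAT (578, 542 and 104 on its annotated strand).

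RXR is the shared partner of the PPARs, LXRs, FXR, VDR, PXR, CAR, and the thyroid hormone and retinoic acid receptors. Rxra had 76.8 FPKM in liver, 39.8 in SKM, 14.1 in kidney, 9.10 in BAT, 8.66 in VAT, 7.64 in SCAT and 2.90 in cortex. Rxrb, whose locus is merged with Col11a2 in the table, stayed between 5.50 FPKM in SCAT and 17.4 in BAT. Rxrg had 22.5 FPKM in SKM, 11.8 in BAT, 2.41 in liver, 1.10 in SCAT, 0.994 in VAT, 0.948 in cortex and 0.0605 in kidney. Its BAT value was 52.2% of the SKM value, where the muscle markers stood at 1.70%, such as Ckm with 166 FPKM in BAT and 8592 in SKM. The part of muscle fibre RNA in the BAT value of Rxrg was not tested. Rxra held 85.2% of the RXR sum in liver, 51.0% in SKM, 24.8% in cortex and 23.8% in BAT. Rxrb held 67.1% in cortex, and Rxrg 30.7% in BAT, 28.9% in SKM and 0.270% in kidney.

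The ratio of the partners to RXR was highest in cortex and lowest in SKM. The 15 listed partners summed to 348 FPKM in liver, 303 in BAT, 134 in cortex, 123 in kidney, 92.1 in VAT, 81.9 in SCAT and 70.0 in SKM. The 3 RXRs summed to 90.1, 38.3, 11.7, 22.4, 16.6, 14.2 and 78.1 FPKM in the same order. The ratio was 11.5 in cortex, 7.92 in BAT, 3.87 in liver and 0.896 in SKM, and 5.46 to 5.75 in the other tissues. The cortex ratio rested on Thra, without which it was 1.42, and the ratio was then highest in BAT (7.20) and still lowest in SKM (0.628). These ratios are of RNA and not of protein.

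**Figure D5:**
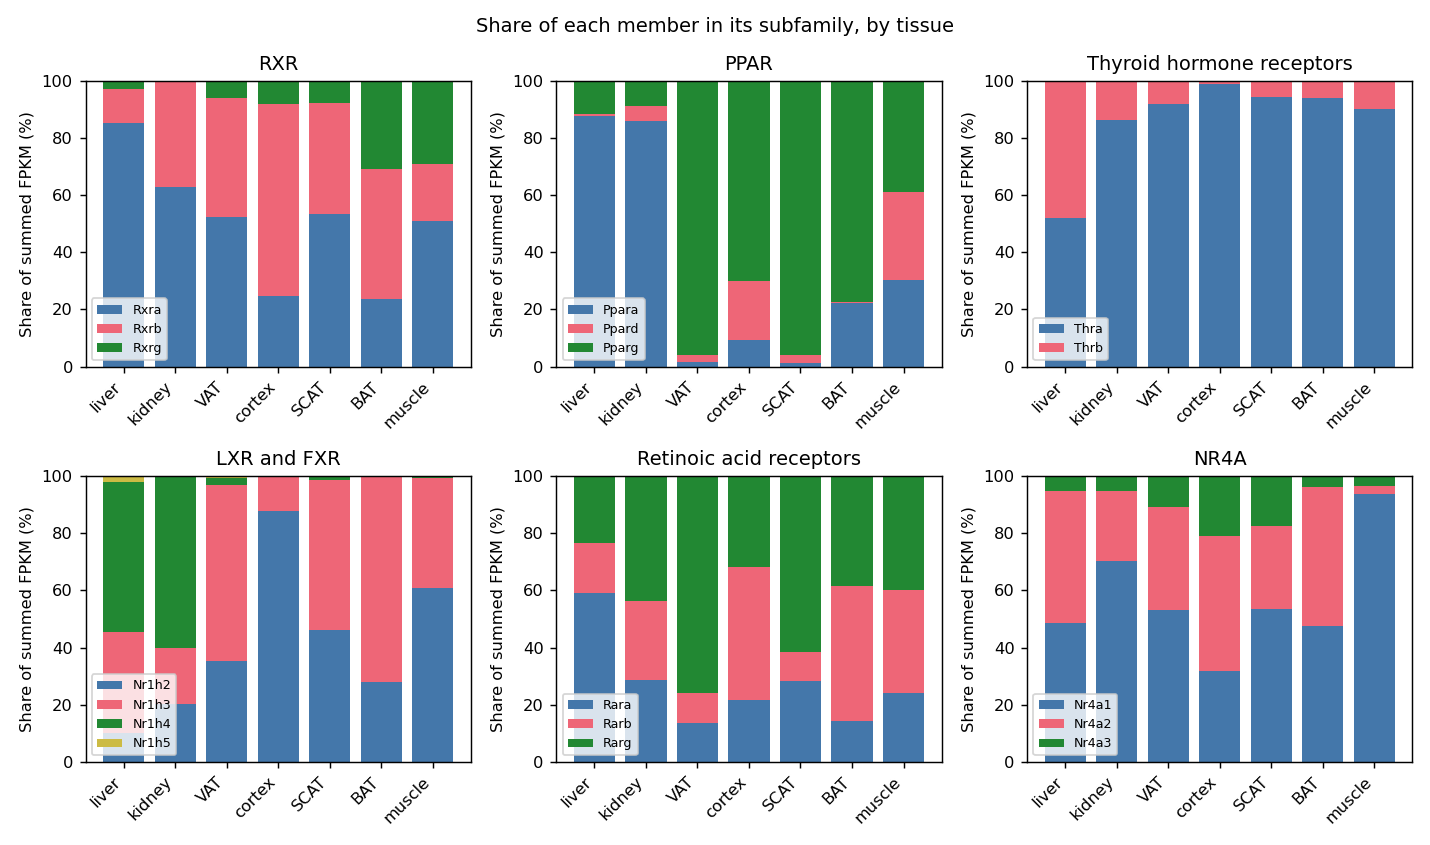
Share of each member in the summed FPKM of its subfamily (percent, bars from 0 to 100), by tissue, for 6 subfamilies. The leading member changes between tissues in 5 of the panels, as from Ppara at 87.7% in liver to Pparg at 96.1% in SCAT, and Thra has its lowest share, 52.0%, in liver, where Thrb leads at 68.3% once the loci of each name are summed.

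Thra, the thyroid hormone receptor alpha gene, had 118 FPKM in cortex, 27.7 in BAT, 20.9 in SKM, 12.4 in kidney, 11.1 in SCAT, 9.76 in VAT and 5.48 in liver. The log2 ratio of 2.08 over BAT was the narrowest of the enriched receptors. Thra overlaps the opposite-strand gene Nr1d1 over 1075 bases, and Nr1d1 had 5.60 FPKM in cortex. Thrb, the isotype of hepatic hormone action, had 5.07 FPKM in liver, 2.28 in SKM, 1.96 in kidney, 1.74 in BAT, 1.33 in cortex, 0.845 in VAT and 0.672 in SCAT. On the annotated strand Thrb had 4.20 FPKM in liver and 2.88 in each of cortex and SKM, so its liver lead fell from 1.12 to 0.53 on the log2 scale. Thrb held 48.0% of the pair's sum in liver and 1.12% in cortex. With the loci of each name summed it held 68.3% in liver and passed Thra there.

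Among genes of thyroid hormone metabolism and response, Dio1, the deiodinase of liver and kidney, had 32.9 FPKM in liver and 1.84 in kidney (log2 ratio 4.09). Slco1c1, a thyroxine transporter of brain capillaries, had 11.7 FPKM in cortex and 0.0955 or less elsewhere (log2 ratio 5.92). Dio2, the activating deiodinase, reached no more than 0.387 FPKM, in BAT. Thrsp, a lipogenic thyroid hormone target, had 213 FPKM in BAT and 21.8 in VAT, and on its annotated strand 39.6 in BAT and 8.43 in SKM, the next highest. In all 3 of 7 genes in each of the thyroid hormone transport and target lists were enriched. Both lists hold Dio1 and Thrsp, so Thrsp, a target, was also counted among the transport genes. The third enriched target was Ucp1 in BAT.

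The retinoic acid receptors were low, with no tissue 2-fold above the next. Rara was highest in liver (2.44 FPKM, lowest 0.472 in cortex), Rarb in BAT (2.49, lowest 0.515 in VAT) and Rarg in SCAT (3.80, with 3.70 in VAT and lowest 0.702 in cortex). None had a log2 ratio above 0.46 between its first 2 tissues. Rarb overlaps the opposite-strand gene Top2b over 4624 bases, and Top2b had 15.7 FPKM in kidney to 29.2 in SCAT. Whether reads of Top2b were counted for Rarb was not tested. Of 12 genes for retinoic acid synthesis and clearance 2 were enriched. Aldh1a1, which makes retinoic acid, had 546 FPKM in liver and 124 in VAT, and Lrat, which stores retinol as ester, had 14.3 in liver and 1.26 in kidney. These Lrat values come from a locus opposite to the annotated strand, on which Lrat had 0.296 FPKM in liver and was not enriched. Rora, a clock-linked orphan receptor, had 22.4 FPKM in SKM, 10.9 in liver, 5.12 in kidney and 1.99 to 2.79 elsewhere. Rorb, its neural relative, had 12.2 FPKM in cortex and 0.387 or less elsewhere (log2 ratio 4.66; 3.09 FPKM in cortex on the annotated strand).

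The other cortex receptors were developmental regulators and Pgr. Nr2f1 (COUP-TF1), which patterns cortical areas, had 2.78 FPKM in cortex and 0.128 or less elsewhere (log2 ratio 3.66). Nr2e1 (tailless), a neural stem cell regulator, had 1.02 FPKM in cortex, 0.00616 in VAT and a listed 0 in each of the 5 others (log2 ratio 3.39). Pgr, the progesterone receptor, had 3.01 FPKM in cortex and 0.157 in kidney, and less elsewhere (log2 ratio 3.60). Nr2e1 lay near the 1 FPKM minimum, and with a pseudocount of 1 none of these 3 was 4-fold apart. Nr2f2 (COUP-TF2), a venous and mesenchymal regulator, had 2.61 FPKM in kidney, 1.98 in liver, 1.47 in SKM and 0.948 or less elsewhere. Nr2f6 was the most even receptor of all, from 3.88 FPKM in SKM to 7.77 in liver, a span of 0.98 on the log2 scale. The testicular receptors were present everywhere, Nr2c1 from 1.36 FPKM in cortex to 4.29 in liver and Nr2c2 from 4.68 in VAT to 13.1 in cortex. Nr2c2 overlaps the opposite-strand gene Mrps25 over 4770 bases, which was also highest in cortex (16.6 FPKM) and next in SKM (12.9), and Nr2f6 overlaps Ocel1 over 5239 bases, which was highest in liver (19.4 FPKM). Whether reads were shared was not tested.

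Oestrogen-related receptors, orphan partners of the coactivator PGC-1 in mitochondrial gene control, did not meet the rule for enrichment in any tissue. Esrra had 33.3 FPKM in BAT, 26.6 in SKM, 17.6 in kidney, 6.81 in liver, 3.79 in cortex, 2.36 in VAT and 1.85 in SCAT. Esrrg had 9.15 FPKM in kidney, 2.65 in BAT, 1.84 in liver, 1.80 in SKM and 1.21 in cortex, with 0.380 in VAT and 0.197 in SCAT. Its log2 ratio of 1.75 over BAT was the closest below the rule. Esrrb had 3.22 FPKM in kidney, 1.64 in SKM and 0.450 or less elsewhere (1.88 and 1.21 on the annotated strand). Ppargc1a, the coactivator gene itself, had 7.37 FPKM in kidney, 6.28 in SKM, 6.20 in BAT, 2.05 in cortex, 1.70 in liver, 0.328 in SCAT and 0.240 in VAT. Of the 8 ERR and PGC1 targets 2 (25.0%, near the background of 21.4%) were enriched, Mb and Ckmt2 in SKM, and Cycs had 965 FPKM in BAT and 418 in SKM.

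The steroid receptors differed in breadth, with Nr3c1 and Nr3c2 at 1 FPKM or more in all 7 tissues and Pgr in cortex alone. Nr3c1, the glucocorticoid receptor, ranged only from 8.17 FPKM in kidney to 16.4 in BAT. Nr3c2, the mineralocorticoid receptor, had 7.75 FPKM in cortex, 4.71 in liver, 4.46 in SKM, 1.49 in kidney, 1.32 in BAT, 1.28 in SCAT and 1.25 in VAT. Nr3c2 held 40.2% of the sum of the 3 steroid receptors Nr3c1, Nr3c2 and Pgr in cortex, and 15.1% in kidney. Of 6 listed kidney targets of the mineralocorticoid receptor 3 were enriched in kidney, Slc12a3 (79.2 FPKM), Kcnj1 (19.7, and 3.48 on its annotated strand) and Scnn1b (5.95). Among the others Sgk1 was highest in SKM (134 FPKM, and 36.9 in kidney) and Scnn1a in liver (8.83, and 5.90 in kidney). Scnn1g had 4.16 FPKM in kidney and 1.20 in BAT and was not enriched.

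Of the 3 genes that activate or inactivate glucocorticoid 1 was enriched. Hsd11b1, which regenerates active glucocorticoid, had 320 FPKM in liver, 63.2 in kidney and 5.74 in cortex. Hsd11b2, which inactivates it, lay between 2.75 FPKM in SCAT and 6.51 in cortex. Of the 8 glucocorticoid receptor targets 3 were enriched, Tat in liver (159 FPKM) and Dusp1 (23.9) and Zbtb16 (9.37) in SKM. On the annotated strand 4 were, with Tsc22d3 added at 30.1 FPKM in SKM and 6.55 in liver, the next highest. Esr1, oestrogen receptor alpha, had 11.8 FPKM in SKM, 10.6 in liver, 6.24 in VAT, 4.82 in kidney, 4.08 in BAT, 2.52 in SCAT and 2.24 in cortex. On its annotated strand Esr1 was lower, with 3.47 FPKM in SKM, 1.78 in liver and 1.76 in kidney. Esr2 did not pass 0.406 FPKM (SKM), and on its annotated strand 0.0387 (cortex).

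Nr4a1, an immediate early gene that is induced in contracting muscle, had 13.0 FPKM in SKM, 1.69 in cortex, 0.777 in BAT, 0.465 in SCAT, 0.424 in VAT, 0.233 in liver and 0.203 in kidney (log2 ratio 2.87). Its relatives were highest in cortex. Nr4a2, which dopamine neurons need, had 2.51 FPKM in cortex and 0.798 in BAT, and Nr4a3 had 1.12 in cortex and 0.445 in SKM. On the annotated strand Nr4a2 had 1.48 FPKM in cortex, and Nr4a3 had 0.636, below the minimum. Nr4a1 held 93.8% of the NR4A sum in SKM and 31.8% in cortex. Nr6a1, a germ cell receptor, had 1.93 FPKM in liver, 1.41 in SKM and 1.12 in BAT and stayed below 1 elsewhere.

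Besides Esr2, 3 receptors did not reach 1 FPKM. Nr5a1, the steroidogenic factor of adrenal and gonad, did not pass 0.0136 FPKM, and its partner Nr0b1 was listed at 0 in all 7 tissues. Nr2e3, a photoreceptor gene, did not pass 0.0673. Of 6 adrenal cortex markers 1 reached 1 FPKM in any tissue and 0 were enriched, and Cyp11b2 was at 0 in all.

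No co-regulator met the rule for enrichment. All 13 coactivators and all 9 corepressors reached 1 FPKM, beside 70.0% of protein-coding genes. Of these 22, 0 were enriched, beside 31.7% of the receptors and the background of 21.4%. Ncor1, the principal corepressor of unliganded receptors, ranged from 36.0 FPKM in BAT to 57.6 in SKM. Ncoa2 ranged from 5.80 FPKM in SKM to 18.3 in cortex. The widest ranges were those of Hr, a thyroid hormone-regulated corepressor, with 15.5 FPKM in SKM and 0.296 in kidney (9.31 and 0.14 on its annotated strand, where liver was lowest at 0.0531), and of Ppargc1a.

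Taking tissues in pairs, with genes of at least 1 FPKM in either, receptors differed more often than other genes in 19 of 21 pairs, which share libraries. Of 36 receptors 61.1% were at least 4-fold apart between liver and cortex (background 38.0%), and 55.9% of 34 between kidney and cortex (background 32.0%). Between liver and kidney 9 of 33 were higher in liver and 4 in kidney, 39.4% together (background 18.4%). VAT and SCAT were the closest pair, with 1 of 20 receptors 4-fold apart (background 10.2%) and a median difference of 0.27 on the log2 scale (background 0.50). Liver differed from VAT in 46.7% of receptors (background 24.2%), from SCAT in 50.0% (background 27.3%), from BAT in 38.7% (background 21.9%) and from SKM in 36.4% (background 28.4%). Kidney differed from VAT in 32.1% (background 19.1%), from SCAT in 34.5% (background 25.5%), from BAT in 26.7% (background 19.5%) and from SKM in 29.0% (background 25.0%). Cortex differed from VAT in 42.9% (background 30.5%), from SCAT in 41.4% (background 31.8%), from BAT in 40.0% (background 34.7%) and from SKM in 48.5% (background 34.7%). SKM differed from VAT in 32.1% (background 24.4%), from SCAT in 40.7% (background 28.3%) and from BAT in 22.2% (background 16.1%), and VAT differed from BAT in 29.2% (background 17.0%). Between SCAT and BAT 5 of 24 were higher in BAT and 0 in SCAT (20.8%, background 21.6%).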

How the data were processed

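Total RNA of 7 tissues was depleted of ribosomal RNA and made into directional libraries, 1 per tissue. According to the methods and the submitters' processing notes, the authors removed rRNA reads with Bowtie2 2.2.9, aligned to GRCm38 (mm10) with STAR 2.6.0c and assembled and quantified loci with Cufflinks 2.2.1 and Cuffdiff. The authors deposited FPKM per locus, and how Cuffdiff scaled libraries or used strand is not given in the sources used here. No fragment counts are given, so the depth, and with it the precision of a single value, is unknown. Among loci of low FPKM the commonest ratio of a tissue to liver was 0.37 in SCAT, 0.47 in VAT and cortex, 1.49 in BAT and 2.18 in SKM. The lowest value that a library could show, and so the meaning of a listed 0, may therefore differ between libraries, which was not tested. The deposited fold changes, test statistics, p-values and q-values of the authors' own comparisons were not used.

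The table holds 94339 loci in 21 comparisons, and a tissue's FPKM was the same in all of its comparisons. Loci with status FAIL (151) were left out, and 225 zeros with status LOWDATA were set to missing. No receptor was affected. Of the loci of a name the one with the highest FPKM was used. Strand was read from the order of locus numbers and compared with GENCODE M21. FPKM was compared as log2(FPKM + 0.1), which understates differences of low values. Since no replicates exist, sizes stand in for tests: enriched means at least 1 FPKM and 4-fold above every other tissue, and tissues within 2-fold were not ordered. All receptors are described, and from other lists genes with large ratios, or set beside a receptor, are named. The members and lists were chosen with earlier results of these data known, and the lists come from textbook knowledge. A gene was left out of a list and is not reported here. Scripts ran in Python 3.11.15 with pandas 2.3.3 and were tested on simulated data. Alternatives covered the pseudocount, scaling, minimum, fold, locus and libraries.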

Additional observations from a re-analysis of the deposited data

How the results depend on the processing

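No paired analysis was possible because each tissue is represented by a single library, and no replicate could be left out. The same 13 receptors were enriched with a pseudocount of 0.01, with FPKM rescaled by median ratios over 14124 genes (shifts of -0.40 in SCAT to 0.26 in SKM on the log2 scale), with the minimum at 0.5 FPKM or none, with loci of a name summed, with loci of several names left out and with LOWDATA zeros kept. With a pseudocount of 1, 9 were enriched (background 15.5%) and 2 of them in cortex. Nr1h5, Nr2e1, Nr2f1 and Pgr fell out, with log2 ratios of 1.51, 1.00, 1.75 and 1.80. With a minimum of 5 FPKM, 25 receptors remained and 7 were enriched (background 22.7%): 3 in liver, 1 in kidney, 2 in cortex and 1 in SKM. At 2-fold 20 were enriched (background 38.5%), 1 of them in BAT and 3 in SKM, and at 8-fold 11 (background 13.8%) and 0 in SKM. Without VAT and SCAT, 14 were enriched (background 22.1%), and the addition was Pparg in BAT (1 receptor, log2 ratio 4.02). Without BAT, an alternative added after the data were seen, as was the annotated-strand locus, 17 were enriched (background 22.3%), 2 of them in SKM, where Rxrg joined Nr4a1. Ppara, Esrrg and Nr4a2 were the other additions. With loci summed, the shares of Thrb and Rara in liver were 68.3% and 76.6%, of Rarg in SCAT 42.3% and of Nr3c2 in cortex 53.2%, and on the annotated strand Rorb held 57.1% of its pair in cortex. With loci summed the leading member of a subfamily changed in 8 of 111 pairs of subfamily and tissue, among them Thrb for Thra in liver, Rara for Rarg in SCAT and Nr3c2 for Nr3c1 in cortex.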
